A study of Homo sapiens with 9 samples.

Results

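The SR proteins and the heterogeneous nuclear ribonucleoproteins (hnRNPs) are the main RNA-binding regulators of splice site choice, and the genes described here are those whose name in the deposited transcript tables is SRSF or HNRNP with a number or letter code, TRA2A, TRA2B, or PTBP1 to PTBP3. This name pattern matched 69 of 60966 genes and 570 of 244443 transcripts, and the pattern itself uses no measured value, although it was set with earlier results of these data known. GENCODE release 29 types 40 of the 69 as protein coding, namely 12 SRSF, 23 HNRNP, 2 TRA2 and 3 PTBP genes, and 29 as pseudogenes. The pattern leaves out HNRNPA2B1 and other hnRNPs with different names, whose values stand among the further pathway genes.

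The samples were cultures of H1299, an established human non-small cell lung carcinoma line, collected 48 h after siRNA transfection. The 3 groups of 3 samples each were transfected with Scramble, a control siRNA, or with either Si-FIBP#1 or Si-FIBP#2, siRNAs against FIBP, which encodes the FGF1 intracellular-binding protein. All 9 samples were the same line with no other treatment named, and the comparisons ask how the transcriptome differed after FIBP depletion. The labels number the replicates and do not say that they were separate cultures, so p-values measure the spread between these samples, which may be technical. Poly(A)-selected RNA was sequenced, and the tables give FPKM, the fragments mapped to a transcript, scaled by its length and by the size of the library, so that levels can be set side by side between genes of different length.

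FIBP itself was at 88.4, 79.5 and 77.7 FPKM in the Scramble libraries, 7.49, 7.77 and 4.30 under Si-FIBP#1 and 7.13, 5.92 and 8.21 under Si-FIBP#2. Each library listed between 13894 and 14715 genes at 1 FPKM or more. Of the mesenchymal markers, VIM was lower in all 6 depleted libraries than in Scramble (log2 fold changes of -0.49 and -0.71) and CDH2 was higher in all 6 (0.35 and 0.43). CDH1 was listed at 0 in every library, and the lung epithelial markers NKX2-1, SFTPB, SFTPC and NAPSA and the blood and endothelial markers PTPRC, CD3E, CD14, PECAM1 and CDH5 had group means below 0.5 FPKM, as did EPCAM and the neuronal RBFOX3. The epithelial keratins were abundant, and lower in all 6 depleted libraries than in Scramble, with group means of 476, 209 and 175 FPKM for KRT18 and 107, 73.4 and 75.9 FPKM for KRT8 in the order Scramble, Si-FIBP#1 and Si-FIBP#2. The fibroblast markers COL1A1 and DCN were low, with group means of 0.0767, 0.687 and 1.09 FPKM and 0.31, 0.563 and 0.747 FPKM in that order, and their part in the results was not tested.

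SR proteins carry RNA recognition motifs and a domain rich in arginine and serine, and they bind mainly exonic enhancers, where they favour inclusion of the exon. The hnRNPs coat nascent transcripts, and many of them, PTBP1 among them, act as silencers of nearby splice sites. Many of these genes control their own level through transcripts that hold an extra exon or a retained intron with an early stop codon, and such transcripts are degraded by nonsense-mediated decay.

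Most of the measured SR and hnRNP genes were lower after FIBP depletion. A call here is a Benjamini-Hochberg adjusted p below 0.05 from limma on log2(FPKM + 1), fitted across all 14985 genes that reached 1 FPKM in 3 or more samples. Of the 69 genes, 36 passed this filter on low values, 35 of them protein coding, with mean levels from 2.74 to 1639 FPKM. With Si-FIBP#1, 25 of the 36 were called lower, 69.4%, where 19.9% of all tested genes were called lower, and 4 were called higher, where the background was 27.8%. With Si-FIBP#2, 25 were called lower, again 69.4%, against a background of 17.7%, and 3 were called higher against 31.1%. The 25 genes called lower were the same with both siRNAs, no gene was called in opposite directions, and 7 were called with neither. Both comparisons use the same Scramble samples. Scaling by median ratios moved the median of all genes down by 0.068 under Si-FIBP#1 and 0.104 under Si-FIBP#2 on the log2 scale, and 29 of the 36 genes were then called lower with each siRNA. The share of all tested genes called lower with that scaling is not given here, so these counts have no background beside them. In bulk RNA, fewer cells with a transcript and less of it per cell cannot be told apart.

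The median log2 fold change of the 36 genes was -0.523 under Si-FIBP#1 and -0.494 under Si-FIBP#2, where the median over all tested genes was 0.0733 and 0.111. For 25 of the 36 all 6 depleted libraries lay below all 3 Scramble libraries, which held for 16.5% of all tested genes, and for 4 all 6 lay above, which held for 26.3%. Most changes were smaller than 2-fold. At the study's own threshold of 2-fold, 3 genes were lower under Si-FIBP#1 (background 3.11%) and 4 under Si-FIBP#2 (background 2.13%), and none was higher (background 2.55% and 2.92%). With 1 library left out these counts lay between 3 and 6 (6 without Scramble replicate 3) and between 2 and 5 (2 without Si-FIBP#2 replicate 2). Relative to the total of all FPKM, the summed level of all 69 genes was 1.06%, 1.08% and 1.08% with Scramble, 0.757%, 0.731% and 0.750% under Si-FIBP#1 and 0.823%, 0.755% and 0.806% under Si-FIBP#2.

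**Figure D1:**
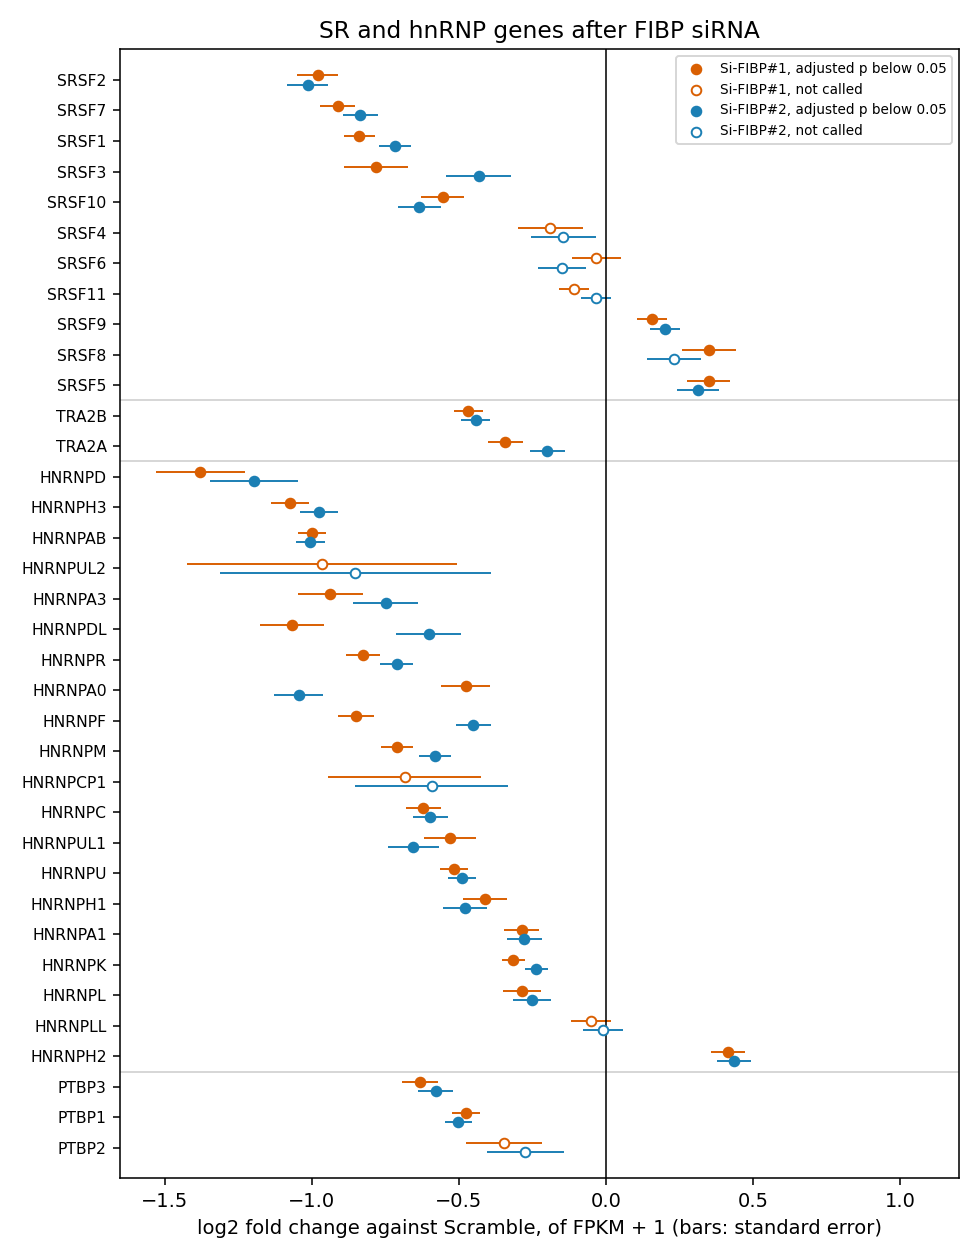
Log2 fold change of FPKM + 1 against Scramble for the 36 tested genes, grouped by family, under Si-FIBP#1 in orange and Si-FIBP#2 in blue. Bars are standard errors and filled points have an adjusted p below 0.05. Most filled points of both colours lie left of 0, and SRSF5, SRSF8, SRSF9 and HNRNPH2 lie to the right with both siRNAs. The SRSF8 point for Si-FIBP#2 is unfilled.

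The summed level differed by family. The SRSF genes together held 1572, 1531 and 1522 FPKM with Scramble, 1288, 1267 and 1258 under Si-FIBP#1 and 1301, 1375 and 1255 under Si-FIBP#2. The HNRNP genes held 6318, 6464 and 6502 FPKM, 4545, 4410.3 and 4454 and 4867, 4203 and 4804 in the same order. In every family all 6 depleted libraries lay below the 3 Scramble libraries. Among the libraries under Si-FIBP#2, replicate 2 had the lowest HNRNP sum and the highest SRSF sum.

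**Figure D2:**
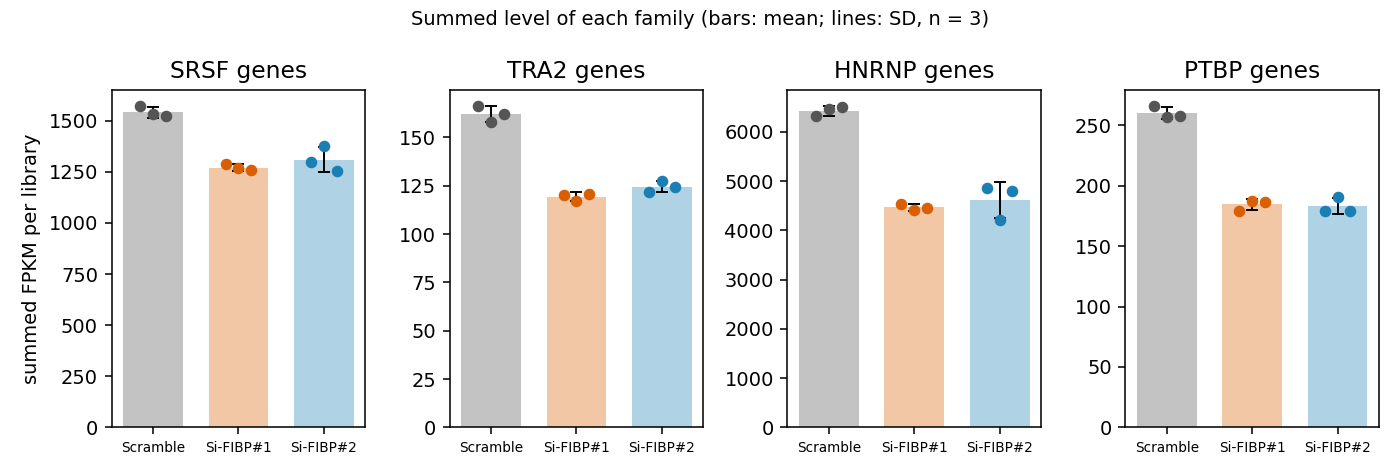
Summed FPKM per library of the SRSF, TRA2, HNRNP and PTBP genes, 1 panel per family, with each of the 3 libraries per group as a point, the group mean as a bar from 0 and the SD as a line. In each panel all 6 depleted libraries lie below the 3 Scramble libraries, and the HNRNP genes hold the largest part of the level.

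Among the SR proteins, 5 of the 11 tested SRSF genes were called lower with each siRNA (SRSF1, SRSF2, SRSF3, SRSF7 and SRSF10), while 3 were called higher under Si-FIBP#1 and 2 under Si-FIBP#2. The lower calls were 45.5% of the family, against backgrounds of 19.9% and 17.7%. The backgrounds for higher calls were 27.8% and 31.1%, which the higher SRSF genes did not exceed. The family's median log2 fold change was -0.189 under Si-FIBP#1 and -0.15 under Si-FIBP#2. SRSF2 (ENSG00000161547, chr17:76734115-76737374), a component of nuclear speckles, was at 286, 250.2 and 255 FPKM in the Scramble libraries, 137, 136 and 126 under Si-FIBP#1 and 140.1, 122 and 128 under Si-FIBP#2. For SRSF2 the log2 fold changes were -0.98 ± 0.069 (SE, adjusted p = 4.8e-06) under Si-FIBP#1 and -1.01 ± 0.069 (SE, adjusted p = 4.7e-06) under Si-FIBP#2. Coordinates of genes are those of GENCODE release 29 on GRCh38. All 6 depleted libraries lay well below the lowest Scramble library, with group means at 50.5% and 49.3% of the Scramble mean. In the annotation, 36.7% of the exonic bases of SRSF2 overlap exons of MFSD11 on the opposite strand. The library kit named in the labels is not a stranded one, so reads there cannot be assigned to either gene. MFSD11 itself had log2 fold changes of 0.33 and 0.23.

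For SRSF7, which also serves in mRNA export, the Scramble libraries read 126, 121 and 120.3 FPKM, those under Si-FIBP#1 66.3, 66.03 and 61.3 and those under Si-FIBP#2 70.5, 71.2 and 63.02. SRSF7 thus had a log2 fold change of -0.91 ± 0.059 (SE, adjusted p = 3.1e-06) for the first siRNA and of -0.83 ± 0.059 (SE, adjusted p = 5.7e-06) for the second. With Scramble, SRSF1, the first SR protein to be described, stood at 129, 123 and 130.2 FPKM, against 66.03, 72.96 and 74.1 under Si-FIBP#1 and 77.8, 77.7 and 76.2 under Si-FIBP#2. SRSF1 differed from Scramble on the log2 scale by -0.84 ± 0.053 (SE, adjusted p = 2.7e-06) under Si-FIBP#1 and by -0.72 ± 0.053 (SE, adjusted p = 7.4e-06) under Si-FIBP#2. Neither gene had a depleted library inside the Scramble range. Exons of an unnamed gene on the same strand, AC015813.2 in the annotation, cover 56.6% of the exonic bases of SRSF1, so its reads may have been split.

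The level of SRSF3, the smallest SR protein and an mRNA export adaptor, was 193, 247 and 269 FPKM with Scramble, 145, 135 and 128 under Si-FIBP#1 and 180.1, 176 and 164 under Si-FIBP#2. SRSF3 log2 fold changes were -0.78 ± 0.11 (SE, adjusted p = 2.8e-04) and -0.43 ± 0.11 (SE, adjusted p = 0.00798) in the same order. The Scramble libraries themselves ranged widely, replicate 1 being the lowest and lying near the upper Si-FIBP#2 libraries. SRSF10, a splicing repressor when dephosphorylated, was at 62.6, 60.4 and 57.3 FPKM in the Scramble libraries, 43.1, 41.5 and 37.3 under Si-FIBP#1 and 39.4, 40.4 and 35.5 under Si-FIBP#2. For SRSF10 the log2 fold changes were -0.56 ± 0.072 (SE, adjusted p = 2.1e-04) under Si-FIBP#1 and -0.63 ± 0.072 (SE, adjusted p = 9.6e-05) under Si-FIBP#2, and all depleted libraries lay below the Scramble libraries.

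The SR genes that were higher moved less. For SRSF5, an SR protein first found as an early response gene in regenerating liver, the Scramble libraries read 335, 300.1 and 283 FPKM, those under Si-FIBP#1 389.8, 383 and 394 and those under Si-FIBP#2 368, 417 and 356. SRSF5 thus had a log2 fold change of 0.35 ± 0.072 (SE, adjusted p = 0.00314) for the first siRNA and of 0.31 ± 0.072 (SE, adjusted p = 0.00553) for the second. The lowest depleted library, at 356 FPKM, was above the highest Scramble library. With Scramble, SRSF9 stood at 189, 199 and 184 FPKM, against 213, 216 and 209 under Si-FIBP#1 and 207, 232 and 219.8 under Si-FIBP#2. SRSF9 differed from Scramble on the log2 scale by 0.16 ± 0.051 (SE, adjusted p = 0.0305) under Si-FIBP#1 and by 0.20 ± 0.051 (SE, adjusted p = 0.00955) under Si-FIBP#2. The SRSF9 call under Si-FIBP#1 held in 10 of 17 alternatives. It was lost with no filter on low values, with TPM scaling and with median ratio scaling (adjusted p = 0.0567, 0.11 and 0.233), and without Scramble replicate 1 or 3 or Si-FIBP#1 replicate 1 or 2 (adjusted p = 0.0753, 0.106, 0.0699 and 0.0909). With median ratio scaling the log2 fold change of SRSF9 was 0.08 with each siRNA, and the call under Si-FIBP#2 was lost as well (adjusted p = 0.225). In the annotation, 46.2% of its exonic bases overlap exons of GATC on the opposite strand. The level of SRSF8, a retrogene of SRSF2, was 18.3, 19.8 and 15.97 FPKM with Scramble, 25.00, 21.2 and 23.4 under Si-FIBP#1 and 19.96, 22.3 and 21.6 under Si-FIBP#2. It was called under Si-FIBP#1, at 0.35 ± 0.091 (SE, adjusted p = 0.0104), but not under Si-FIBP#2, at 0.23 ± 0.091 (SE, adjusted p = 0.0584), and the difference between the siRNAs was -0.12 ± 0.091 (SE, adjusted p = 0.433).

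No call was made for SRSF4, SRSF6 and SRSF11. SRSF6 was at 71.4, 69.8 and 69.95 FPKM with Scramble, 68.6, 67.8 and 70.1 under Si-FIBP#1 and 62.4, 72.98 and 55.8 under Si-FIBP#2, so that the ranges overlapped. SRSF4 had group means of 61.4, 53.1 and 54.8 FPKM, and its replicate 1 of Scramble, at 74.8, stood above its other Scramble libraries at 55.5 and 53.9. SRSF11 had group means of 85.1, 78.95 and 83.1 FPKM. SRSF12 did not reach 1 FPKM in any library.

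TRA2A and TRA2B are SR-like proteins that bind purine-rich exonic enhancers, and both were lower with both siRNAs. TRA2B was at 123, 115 and 124 FPKM in the Scramble libraries, 89.2, 85.4 and 86.8 under Si-FIBP#1 and 84.8, 92.4 and 88.9 under Si-FIBP#2. TRA2B log2 fold changes were -0.47 ± 0.05 (SE, adjusted p = 6.3e-05) and -0.44 ± 0.05 (SE, adjusted p = 9.0e-05) in the same order. For TRA2A, the Scramble libraries read 42.6, 42.4 and 38.5 FPKM, those under Si-FIBP#1 31.1, 31.6 and 34.1 and those under Si-FIBP#2 36.8, 35.05 and 35.4. For TRA2A the log2 fold changes were -0.34 ± 0.06 (SE, adjusted p = 0.00131) under Si-FIBP#1 and -0.20 ± 0.06 (SE, adjusted p = 0.0216) under Si-FIBP#2. All 6 depleted libraries were below all Scramble libraries for each of them, but the TRA2A call under Si-FIBP#2 was lost when Scramble replicate 1, Scramble replicate 2 or Si-FIBP#2 replicate 3 was left out (adjusted p = 0.0714, 0.079 and 0.0605).

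Of the 20 tested HNRNP genes, 16 were called lower and 1 higher with each siRNA, and the family's median log2 fold change was -0.651 under Si-FIBP#1 and -0.594 under Si-FIBP#2. The lower calls were 80.0% of the family, against backgrounds of 19.9% and 17.7%, and the backgrounds for higher calls were 27.8% and 31.1%. Among the called HNRNP genes, HNRNPD had the largest decrease with each siRNA. With Scramble, HNRNPD (ENSG00000138668, chr4:82352498-82374503), also known as AUF1, which binds AU-rich elements of short-lived mRNAs, stood at 320.0, 334 and 352 FPKM, against 134, 115 and 137 under Si-FIBP#1 and 172, 109.5 and 164 under Si-FIBP#2. HNRNPD thus had a log2 fold change of -1.38 ± 0.15 (SE, adjusted p = 6.8e-05) for the first siRNA and of -1.20 ± 0.15 (SE, adjusted p = 1.7e-04) for the second. The lowest of the 9 values was that of Si-FIBP#2 replicate 2, and no depleted library came near the Scramble range.

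The level of HNRNPH3, a relative of the G-tract binding proteins HNRNPH1 and HNRNPF, was 197, 217 and 214 FPKM with Scramble, 105, 96.4 and 95.8 under Si-FIBP#1 and 114, 99.8 and 104 under Si-FIBP#2. HNRNPH3 differed from Scramble on the log2 scale by -1.07 ± 0.064 (SE, adjusted p = 1.9e-06) under Si-FIBP#1 and by -0.97 ± 0.064 (SE, adjusted p = 3.8e-06) under Si-FIBP#2. HNRNPAB, a relative of HNRNPD, was at 262, 288 and 265 FPKM in the Scramble libraries, 140.3, 131 and 135 under Si-FIBP#1 and 133, 136 and 135 under Si-FIBP#2. HNRNPAB log2 fold changes were -0.999 ± 0.049 (SE, adjusted p = 7.3e-07) and -1.005 ± 0.049 (SE, adjusted p = 9.3e-07) in the same order. For both genes the depleted libraries lay far below the Scramble libraries, and the siRNA groups overlapped each other. For HNRNPDL, the closest paralog of HNRNPD, the Scramble libraries read 187, 186 and 185 FPKM, those under Si-FIBP#1 86.1, 86.6 and 91.9 and those under Si-FIBP#2 143, 98.2 and 129.6. For HNRNPDL the log2 fold changes were -1.07 ± 0.11 (SE, adjusted p = 5.5e-05) under Si-FIBP#1 and -0.60 ± 0.11 (SE, adjusted p = 0.0017) under Si-FIBP#2. Here the depleted groups differed from each other as well, the Si-FIBP#1 libraries all being below the Si-FIBP#2 libraries.

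With Scramble, HNRNPA3 stood at 274, 291 and 305 FPKM, against 160.1, 143 and 150.2 under Si-FIBP#1 and 199, 141 and 182 under Si-FIBP#2. HNRNPA3 thus had a log2 fold change of -0.94 ± 0.11 (SE, adjusted p = 1.0e-04) for the first siRNA and of -0.75 ± 0.11 (SE, adjusted p = 4.0e-04) for the second. The level of HNRNPR, a paralog of SYNCRIP, was 129, 130.0 and 129 FPKM with Scramble, 69.8, 71.6 and 76.3 under Si-FIBP#1 and 81.8, 72.8 and 81.4 under Si-FIBP#2. HNRNPR differed from Scramble on the log2 scale by -0.82 ± 0.057 (SE, adjusted p = 4.4e-06) under Si-FIBP#1 and by -0.71 ± 0.057 (SE, adjusted p = 1.2e-05) under Si-FIBP#2. HNRNPM was at 268, 264 and 274 FPKM in the Scramble libraries, 169.6, 157 and 165 under Si-FIBP#1 and 192, 168 and 179 under Si-FIBP#2. HNRNPM log2 fold changes were -0.71 ± 0.054 (SE, adjusted p = 7.5e-06) and -0.58 ± 0.054 (SE, adjusted p = 2.9e-05) in the same order. In each of these genes both depleted groups were below Scramble without overlap. For HNRNPF (chr10:43385617-43409166), a G-tract binding protein, the Scramble libraries read 196, 196 and 203 FPKM, those under Si-FIBP#1 102, 109.6 and 118 and those under Si-FIBP#2 147, 137 and 151. For HNRNPF the log2 fold changes were -0.85 ± 0.061 (SE, adjusted p = 5.6e-06) under Si-FIBP#1 and -0.45 ± 0.061 (SE, adjusted p = 2.8e-04) under Si-FIBP#2. With Scramble, HNRNPA0 (chr5:137745651-137754376), an intronless gene of the A/B group, stood at 28.03, 28.4 and 28.7 FPKM, against 19.6, 20.4 and 20.3 under Si-FIBP#1 and 11.9, 15.3 and 12.7 under Si-FIBP#2. HNRNPA0 thus had a log2 fold change of -0.48 ± 0.084 (SE, adjusted p = 0.00128) for the first siRNA and of -1.04 ± 0.084 (SE, adjusted p = 1.2e-05) for the second. For HNRNPF the lower group was Si-FIBP#1, while for HNRNPA0 it was Si-FIBP#2.

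HNRNPC, HNRNPU, HNRNPUL1 and HNRNPH1 were also lower with both siRNAs. The level of HNRNPC, which binds uridine tracts and packages nascent transcripts, was 554, 586 and 587 FPKM with Scramble, 383, 369 and 370.4 under Si-FIBP#1 and 403, 344 and 395 under Si-FIBP#2. HNRNPC differed from Scramble on the log2 scale by -0.62 ± 0.06 (SE, adjusted p = 3.4e-05) under Si-FIBP#1 and by -0.60 ± 0.06 (SE, adjusted p = 4.4e-05) under Si-FIBP#2. HNRNPU, a nuclear scaffold protein also called SAF-A, was at 322, 335 and 327 FPKM in the Scramble libraries, 230.3, 222 and 235 under Si-FIBP#1 and 243, 219.7 and 239 under Si-FIBP#2. HNRNPU log2 fold changes were -0.52 ± 0.048 (SE, adjusted p = 2.6e-05) and -0.49 ± 0.048 (SE, adjusted p = 3.9e-05) in the same order. In the annotation, 15.6% of the exonic bases of HNRNPU overlap COX20 on the opposite strand. For HNRNPUL1, the Scramble libraries read 345, 344 and 343 FPKM, those under Si-FIBP#1 257, 232 and 226 and those under Si-FIBP#2 246, 188 and 225. For HNRNPUL1 the log2 fold changes were -0.53 ± 0.088 (SE, adjusted p = 9.1e-04) under Si-FIBP#1 and -0.65 ± 0.088 (SE, adjusted p = 2.7e-04) under Si-FIBP#2. With Scramble, HNRNPH1 stood at 554, 498 and 472 FPKM, against 409, 371 and 365 under Si-FIBP#1 and 386, 334 and 372 under Si-FIBP#2. HNRNPH1 thus had a log2 fold change of -0.41 ± 0.075 (SE, adjusted p = 0.00163) for the first siRNA and of -0.48 ± 0.075 (SE, adjusted p = 6.5e-04) for the second. In each of these 4 genes the highest depleted library was below the lowest Scramble library.

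HNRNPA1 and HNRNPK, the members with the highest mean levels, were lower by small factors. The level of HNRNPA1 (ENSG00000135486, chr12:54280193-54287088), a widely studied silencer of exons, was 1771, 1884 and 1917 FPKM with Scramble, 1526, 1529 and 1513 under Si-FIBP#1 and 1590.3, 1385 and 1631 under Si-FIBP#2. HNRNPA1 differed from Scramble on the log2 scale by -0.29 ± 0.06 (SE, adjusted p = 0.00349) under Si-FIBP#1 and by -0.28 ± 0.06 (SE, adjusted p = 0.00402) under Si-FIBP#2. By mean level over all libraries it ranked 74 of all 60966 genes. HNRNPK, which binds cytosine-rich RNA, was at 531, 537 and 549 FPKM in the Scramble libraries, 429, 436 and 435 under Si-FIBP#1 and 464, 440.4 and 469.6 under Si-FIBP#2. HNRNPK log2 fold changes were -0.31 ± 0.038 (SE, adjusted p = 1.3e-04) and -0.24 ± 0.038 (SE, adjusted p = 7.4e-04) in the same order. HNRNPL, which binds CA repeats, had log2 fold changes of -0.28 and -0.25, called with both siRNAs. HNRNPA1 and HNRNPC have many processed pseudogenes, and how reads that fit several copies were counted is not given in the sources used here.

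HNRNPH2 was the only HNRNP gene called higher. For HNRNPH2, an X-linked and nearly identical paralog of HNRNPH1, the Scramble libraries read 57.1, 54.3 and 56.7 FPKM, those under Si-FIBP#1 72.5, 78.5 and 74.00 and those under Si-FIBP#2 72.4, 81.6 and 74.7. For HNRNPH2 the log2 fold changes were 0.41 ± 0.058 (SE, adjusted p = 3.2e-04) under Si-FIBP#1 and 0.43 ± 0.058 (SE, adjusted p = 2.4e-04) under Si-FIBP#2. HNRNPH1 and HNRNPH2 thus moved in opposite directions, though reads of near-identical copies may be misassigned, and 16.3% of the exonic bases of HNRNPH2 also belong to the read-through gene RPL36A-HNRNPH2.

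HNRNPLL and HNRNPUL2 were not called. HNRNPLL, a paralog of HNRNPL, had group means of 19.8, 19.04 and 19.6 FPKM. With Scramble, HNRNPUL2 stood at 12.9, 7.02 and 2.09 FPKM, against 2.82, 2.36 and 2.62 under Si-FIBP#1 and 4.49, 3.06 and 1.64 under Si-FIBP#2. Exons of the read-through gene HNRNPUL2-BSCL2 cover 44.1% of its exonic bases, and that gene was at 27.7, 34.5 and 41.8 FPKM with Scramble. The sum of both genes was 40.7, 41.6 and 43.9 FPKM with Scramble, 32.7, 32.4 and 34.6 under Si-FIBP#1 and 36.4, 39.6 and 36.4 under Si-FIBP#2. The separate values of HNRNPUL2 therefore varied more between Scramble replicates than the sum did. In the sum all 6 depleted libraries lay below all 3 Scramble libraries, as held for 16.5% of all tested genes. The sum itself was not tested.

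The polypyrimidine tract-binding proteins PTBP1 and PTBP3 were lower with both siRNAs. The level of PTBP1 (ENSG00000011304, chr19:797075-812327), the main silencer of neuronal exons in non-neuronal cells, was 229, 221 and 219 FPKM with Scramble, 156, 164 and 161 under Si-FIBP#1 and 153, 166 and 153 under Si-FIBP#2. PTBP1 thus had a log2 fold change of -0.47 ± 0.047 (SE, adjusted p = 3.7e-05) for the first siRNA and of -0.50 ± 0.047 (SE, adjusted p = 2.9e-05) for the second. PTBP3 was at 30.00, 30.5 and 30.03 FPKM in the Scramble libraries, 18.1, 18.8 and 20.5 under Si-FIBP#1 and 20.5, 19.6 and 19.6 under Si-FIBP#2. PTBP3 differed from Scramble on the log2 scale by -0.63 ± 0.06 (SE, adjusted p = 2.9e-05) under Si-FIBP#1 and by -0.58 ± 0.06 (SE, adjusted p = 5.3e-05) under Si-FIBP#2. For both genes the depleted libraries lay below the Scramble libraries, and the siRNA groups overlapped each other. For PTBP2, the neuronal paralog, the Scramble libraries read 7.33, 5.93 and 8.20 FPKM, those under Si-FIBP#1 5.80, 5.11 and 5.21 and those under Si-FIBP#2 5.78, 4.81 and 6.62. PTBP2 log2 fold changes were -0.35 ± 0.13 (SE, adjusted p = 0.0507) and -0.27 ± 0.13 (SE, adjusted p = 0.108) in the same order, so no call was made, and Si-FIBP#2 replicate 3 lay inside the Scramble range. Over 17 alternatives PTBP2 was called lower in 9 under Si-FIBP#1, with adjusted p from 0.0202 to 0.17, the lowest being without Scramble replicate 2, and in 2 under Si-FIBP#2, with adjusted p from 0.0393 to 0.34. The replicate block was among the 9 (adjusted p = 0.0237).

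The 29 pseudogenes and the low coding genes held little signal. HNRNPCP1, a processed pseudogene of HNRNPC, was the only pseudogene tested, at 2.82, 5.33 and 3.57 FPKM with Scramble, 2.25, 1.05 and 3.01 under Si-FIBP#1 and 2.49, 1.69 and 2.44 under Si-FIBP#2, and it was not called. Of the others, 13 were listed at 0 in all libraries and 15 were detected but not tested. The coding genes HNRNPCL1, HNRNPCL2, HNRNPCL3 and HNRNPCL4 were listed at 0 throughout. No untested member exceeded 0.45 FPKM in any library.

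The effects of Si-FIBP#1 and Si-FIBP#2 differed for 3 of the 36 genes in the direct comparison of the 2 siRNAs, where 15.4% of all tested genes were called. HNRNPF was higher under Si-FIBP#2 by 0.40 ± 0.061 (SE, adjusted p = 0.00325) and HNRNPDL by 0.47 ± 0.11 (SE, adjusted p = 0.0221) on the log2 scale. HNRNPA0 was lower under Si-FIBP#2, at -0.57 ± 0.084 (SE, adjusted p = 0.0028). SRSF3 had a difference of 0.35 ± 0.11 (SE, adjusted p = 0.0547) and was not called, though it was called in 5 of 17 alternatives, with adjusted p from 0.00972 to 0.149. Without Si-FIBP#2 replicate 2, 9 genes were called in place of 3, and the share of all tested genes called in that fit is not given here.

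Other genes of the splicing pathway were called in both directions. The shares of all tested genes called lower and higher, 19.9% and 27.8% under Si-FIBP#1 and 17.7% and 31.1% under Si-FIBP#2, are the background of each of these counts. Of 9 hnRNP genes outside the name pattern, 5 were called lower and 1 higher under Si-FIBP#1, and 6 lower and 2 higher under Si-FIBP#2, with median log2 fold changes of -0.236 and -0.293. HNRNPA2B1 had log2 fold changes of -0.63 and -0.48 and SYNCRIP of -0.74 and -0.69. CIRBP, a cold-inducible RNA-binding protein, was called higher at log2 fold changes of 0.59 and 0.71.

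Of 17 SR-related and U2AF genes, 6 were called lower with each siRNA, and 1 was called higher under Si-FIBP#1 and 0 under Si-FIBP#2. With Scramble, U2AF2, the large U2AF subunit, which recognises the polypyrimidine tract before the 3′ splice site, stood at 162, 145 and 151 FPKM, against 52.6, 46.7 and 49.7 under Si-FIBP#1 and 66.8, 59.7 and 61.5 under Si-FIBP#2. For U2AF2 the log2 fold changes were -1.60 ± 0.067 (SE, adjusted p = 4.4e-07) under Si-FIBP#1 and -1.27 ± 0.067 (SE, adjusted p = 1.3e-06) under Si-FIBP#2. Its partner U2AF1 was not called, at log2 fold changes of 0.01 and -0.16. PNN had log2 fold changes of -0.47 and -0.50. Among 9 tested genes for SR protein kinases and import, 2 were called lower and 3 higher under Si-FIBP#1, and 2 lower and 2 higher under Si-FIBP#2, counts close to the background in so short a list. SRPK1, a cytoplasmic kinase of SR proteins, had log2 fold changes of -0.61 and -0.54, and TNPO3, their import receptor, of -0.43 and -0.42. CLK4, a nuclear kinase of SR proteins, was called higher at log2 fold changes of 0.36 and 0.38.

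Of 18 other tested splicing regulators, counted by gene identifier, 10 were called lower with each siRNA, and 0 were called higher under Si-FIBP#1 and 1 under Si-FIBP#2. TARDBP had log2 fold changes of -0.56 and -0.47 and KHDRBS1 of -0.46 and -0.45. Of 10 nonsense-mediated decay factors, 3 were called lower and 1 higher under Si-FIBP#1, and 2 lower and 3 higher under Si-FIBP#2, the latter pair close to the background. SMG8 was called higher with both, at log2 fold changes of 0.36 and 0.28. UPF1, the central helicase of the pathway, was not called, at -0.18 and -0.10. The pathway column of the tables ties 608 further gene names to the KEGG Spliceosome, of which 151 were tested. Of these, 46 were called lower and 16 higher under Si-FIBP#1, and 51 lower and 13 higher under Si-FIBP#2, with median log2 fold changes of -0.081 and -0.064.

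The transcripts within each gene were compared by their share of the gene's summed FPKM. A share was called changed at an adjusted p below 0.05 together with a difference of at least 5 percentage points, among transcripts with a mean share of 5 to 95% in genes with a mean of at least 1 FPKM. Of the 570 member transcripts, 145 in 33 genes were tested. With Si-FIBP#1, 8 shares in 5 genes were called, 5.52% of the tested member transcripts, where 1.44% of all 42875 tested transcripts were called. With Si-FIBP#2, 2 were called, 1.38%, where the background was 0.613%, and both were among the 8. The background was not matched for level, and the tested members had a median mean level of 135 FPKM. Transcripts of the same gene are not independent, and HNRNPC and HNRNPDL each had more than 1 of the 8. Between the siRNAs 0 were called by limma, against a background of 0.00233%, while 21 of the 145, and 3484 of all 42875, had an unadjusted p below 0.05. The calls were fragile. With any 1 library left out, the count for Si-FIBP#2 fell to 0, and for Si-FIBP#1 it fell to 0 without Scramble replicate 2 or without Si-FIBP#1 replicate 2.

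**Figure D3:**
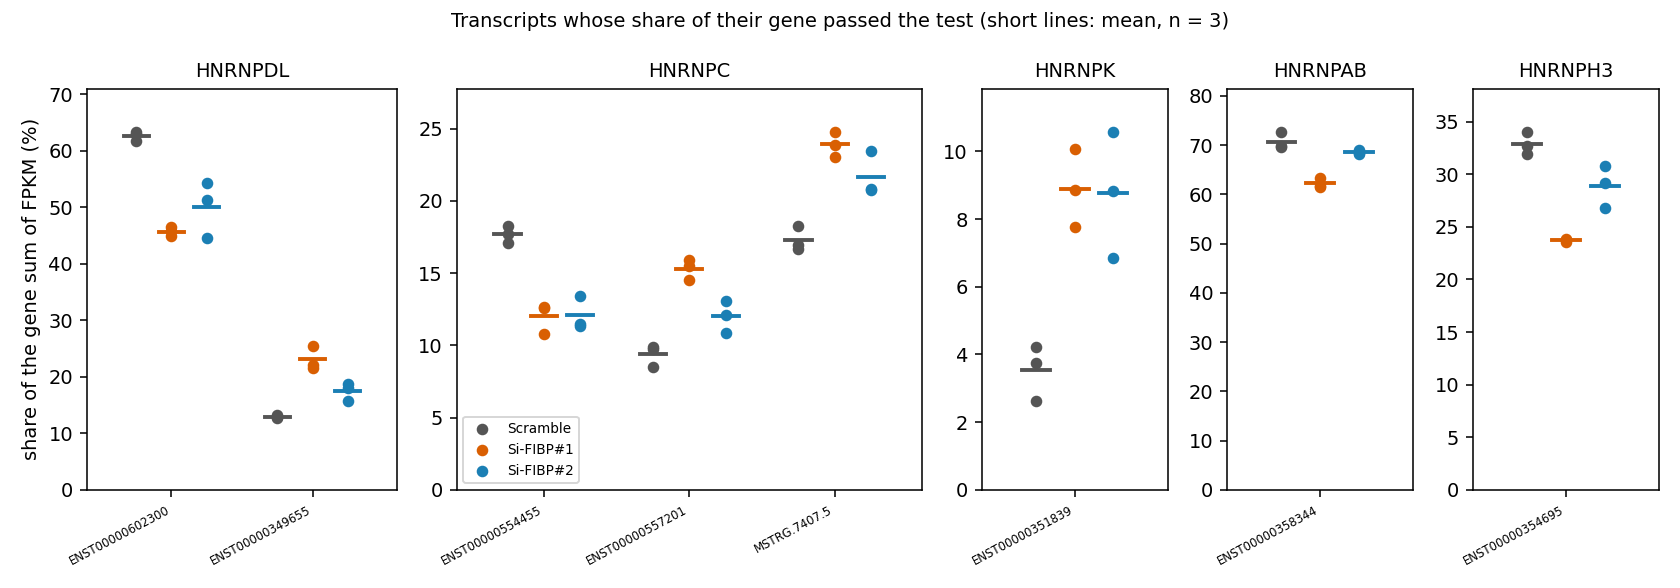
Share of each called transcript in its gene's summed FPKM, in percent, with each library as a point and the group mean as a short line, for HNRNPDL, HNRNPC, HNRNPK, HNRNPAB and HNRNPH3. In each panel the Scramble points lie apart from the Si-FIBP#1 points, and the Si-FIBP#2 points lie nearer to Scramble than the Si-FIBP#1 points for HNRNPAB and HNRNPH3.

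Coding segments that differ between the main transcripts of HNRNPAB, HNRNPC and HNRNPH3 are shown 5′ to 3′ on the transcribed strand, from the transcripts of GENCODE release 29 on GRCh38, because these stretches set which protein form a transcript encodes. They lie at chr5:178210132-178210272 on the plus strand, chr14:21230958-21230996 on the minus strand and chr10:68338643-68338687 on the plus strand, and no capitals are used.
HNRNPAB, 141 bases of coding exon: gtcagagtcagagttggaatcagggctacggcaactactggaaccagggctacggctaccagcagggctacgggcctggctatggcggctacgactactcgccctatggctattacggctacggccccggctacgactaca
HNRNPC, 39 bases of coding exon: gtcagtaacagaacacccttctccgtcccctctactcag
HNRNPH3, 45 bases of coding exon: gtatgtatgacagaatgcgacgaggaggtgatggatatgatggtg

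HNRNPAB is transcribed mainly as ENST00000358344, which has the 141-base exon and 332 codons, and as ENST00000355836, which lacks it and has 285 codons, and they differ outside the coding part as well. The share of ENST00000358344 was 69.7, 69.7 and 72.7% with Scramble, 61.8, 61.5 and 63.3% under Si-FIBP#1 and 68.3, 69.1 and 68.2% under Si-FIBP#2. It changed by -8.49 percentage points (log2 odds -0.55 ± 0.085, adjusted p = 0.0223) under Si-FIBP#1. With Si-FIBP#2 the difference was -2.17 percentage points (log2 odds -0.15 ± 0.085, adjusted p = 0.482) and was not called. ENST00000355836, without the exon, stood at 21.2, 21.6 and 21.1% with Scramble and 25.2, 26.97 and 25.5% under Si-FIBP#1, a difference that was not called (adjusted p = 0.221).

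HNRNPH3 has ENST00000265866 with the 45-base segment and 346 codons and ENST00000354695 without it and with 331 codons. They also differ after the stop codon, at total lengths of 2339 and 1332 bases, so a share here is not a measure of the 45-base segment alone. The shorter form held 32.7, 34.04 and 31.9% of the gene with Scramble, 23.9, 23.6 and 23.7% under Si-FIBP#1 and 30.8, 26.8 and 29.2% under Si-FIBP#2. Its share changed by -9.15 percentage points (log2 odds -0.65 ± 0.1, adjusted p = 0.0244) under Si-FIBP#1 and by -3.96 percentage points (log2 odds -0.27 ± 0.1, adjusted p = 0.301) under Si-FIBP#2, of which the second was not called. The longer form held 27.97, 24.7 and 27.9%, 26.9, 28.6 and 29.6% and 24.97, 24.4 and 26.4% in the same order, without a call.

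HNRNPC had 3 called transcripts. ENST00000554455 and ENST00000557201 both hold the 39-base coding segment and encode 306 codons, and ENST00000557201 skips a 26-base exon at chr14:21263311-21263336, upstream of the coding part. They also differ after the stop codon, at total lengths of 1784 and 1371 bases, so the share of either is not a measure of the 26-base exon alone. The share of ENST00000554455, with the upstream exon, was 17.7, 18.3 and 17.1% with Scramble, 12.6, 10.8 and 12.7% under Si-FIBP#1 and 13.4, 11.3 and 11.5% under Si-FIBP#2. It changed by -5.7 percentage points (log2 odds -0.66 ± 0.11, adjusted p = 0.0311) under Si-FIBP#1 and by -5.63 percentage points (log2 odds -0.65 ± 0.11, adjusted p = 0.049) under Si-FIBP#2. ENST00000557201, without that exon, was at 9.77, 8.52 and 9.88%, 15.5, 15.9 and 14.5% and 10.8, 13.04 and 12.1% in the same order. Its share changed by 5.91 percentage points (log2 odds 0.80 ± 0.12, adjusted p = 0.0172) under Si-FIBP#1, while under Si-FIBP#2 the difference was 2.62 percentage points (log2 odds 0.40 ± 0.12, adjusted p = 0.173). ENST00000553300, which lacks the 39-base segment and encodes 293 codons, was not called, with group means of 27.5, 24.8 and 25.7%. A transcript assembled from the reads, MSTRG.7407.5, rose from a group mean of 17.3% to 23.9% under Si-FIBP#1 (adjusted p = 0.0262) and stood at 21.7% under Si-FIBP#2 (adjusted p = 0.107). Its structure was not analysed here.

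For HNRNPK, the transcript ENST00000351839 took a larger share with both siRNAs. It held 4.22, 2.61 and 3.75% with Scramble, 10.1, 7.75 and 8.85% under Si-FIBP#1 and 10.6, 6.85 and 8.84% under Si-FIBP#2. The changes were 5.36 percentage points (log2 odds 1.43 ± 0.23, adjusted p = 0.0255) and 5.23 percentage points (log2 odds 1.40 ± 0.23, adjusted p = 0.0411). It encodes 463 codons, as does the most abundant transcript ENST00000360384, and in FPKM it went from 19.00 ± 4.42 (SD, n = 3) to 38.5 ± 4.68 and 40.2 ± 9.51, while the gene as a whole fell.

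Among the called transcripts, HNRNPDL had the largest shift of share in percentage points, while in log2 odds the called HNRNPK transcript moved more. ENST00000602300, its main coding transcript, held 61.7, 63.4 and 62.96% with Scramble, 45.8, 44.9 and 46.5% under Si-FIBP#1 and 54.3, 44.6 and 51.4% under Si-FIBP#2. Its share changed by -17.0 percentage points (log2 odds -0.99 ± 0.14, adjusted p = 0.0149) under Si-FIBP#1, and under Si-FIBP#2 the difference of -12.6 percentage points (log2 odds -0.74 ± 0.14, adjusted p = 0.0578) missed the threshold. ENST00000349655 has the same 301 codons and the same stop codon, and an additional 105-base exon at chr4:82425563-82425667 downstream of it, which places the last exon junction 127 bases after the stop. The annotation classes it as a target of nonsense-mediated decay. It held 12.97, 12.7 and 13.3% with Scramble, 22.1, 25.5 and 21.6% under Si-FIBP#1 and 15.7, 17.9 and 18.7% under Si-FIBP#2. The changes were 10.1 percentage points (log2 odds 1.005 ± 0.13, adjusted p = 0.013) for Si-FIBP#1, which was called, and 4.48 percentage points (log2 odds 0.50 ± 0.13, adjusted p = 0.143) for Si-FIBP#2, which was not. In FPKM the coding transcript went from 116 ± 1.38 (SD, n = 3) to 40.3 ± 2.11 and 62.7 ± 17.2. The decay-class transcript went from 24.1 ± 0.483 to 20.3 ± 1.55 and 21.4 ± 3.42.

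The transcripts of each gene were also summed by their class in GENCODE release 29, as a description without a test. Of 21 tested members with 1 to 99% of their level in the nonsense-mediated decay class, 4 had all 6 depleted libraries above all Scramble libraries (SRSF7, HNRNPDL, HNRNPD and HNRNPK), where 2.83% of all such genes did, and 1 had all 6 below (HNRNPH1), where 4.5% did. For the share of the retained intron class it was 4 of 20 above (SRSF2, SRSF10, HNRNPD and HNRNPUL1), against 3.61% of all such genes, and 1 below (SRSF5), against 2.98%. For transcripts classed as protein coding it was 0 of 33 above, against 4.6%, and 7 below, against 5.4%. Transcripts assembled from the reads, whose coding status was not analysed, had 5 of 21 above, against 7.22%, and 2 below, against 5.28%. The class shares of a gene add up to the whole, so the counts of these classes depend on each other. In HNRNPF, for example, the coding share had group means of 72.1, 65.5 and 64.6%, and the assembled share of 27.9, 34.5 and 35.4%. A higher share is not a higher level, and SRSF2, SRSF10, HNRNPD and HNRNPUL1 were all lower as whole genes. In FPKM their retained intron class had overlapping Scramble and depleted ranges. Its group means were 14.1, 13.8 and 10.9 FPKM for SRSF2 and 2.33, 1.73 and 2.34 for HNRNPD. For SRSF10 the class mean was 4.22 with Scramble, 4.0 under Si-FIBP#1 and 4.03 under Si-FIBP#2. For HNRNPUL1 it was 2.69 with Scramble, 3.39 under Si-FIBP#1 and 2.5 under Si-FIBP#2.

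The early stop codons of the SRSF7 and TRA2B decay-class transcripts are shown with the sequence before them, where these transcripts depart from the coding ones. Both are read 5′ to 3′ on the minus strand from GENCODE release 29 on GRCh38, at chr2:38749516-38749558 and chr3:185931772-185931852, with the stop codon in capitals. The SRSF7 line begins with the last 30 bases of the exon before the retained intron, and the TRA2B line begins at the first base of the additional exon.
SRSF7, ENST00000443213: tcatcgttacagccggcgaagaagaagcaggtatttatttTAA
TRA2B, ENST00000456380: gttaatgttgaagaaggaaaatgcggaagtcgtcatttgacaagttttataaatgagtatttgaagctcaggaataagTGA

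SRSF7 ENST00000443213 retains an intron of 875 bases at chr2:38748654-38749528 and reads into a stop codon after 132 codons, 1138 bases before its last exon junction. The coding transcript ENST00000409276 has 235 codons, and it also lacks a segment of 9 bases at chr2:38748047-38748055 that ENST00000443213 holds. The decay class of SRSF7 held 19.9, 17.2 and 19.3% of the gene with Scramble, 26.2, 29.8 and 34.5% under Si-FIBP#1 and 28.9, 30.7 and 26.1% under Si-FIBP#2. In FPKM this class was at 25.02, 20.8 and 23.2 with Scramble, 17.4, 19.7 and 21.2 under Si-FIBP#1 and 20.3, 21.9 and 16.5 under Si-FIBP#2, with overlapping ranges. The summed coding class of SRSF7 had group means of 95.9, 42.3 and 45.4 FPKM. Within that class, ENST00000409276 had means of 57.00, 20.5 and 24.4 FPKM. The share of ENST00000443213 alone differed by 8.27 percentage points (log2 odds 0.75 ± 0.17, adjusted p = 0.0667) under Si-FIBP#1 and 7.62 percentage points (log2 odds 0.70 ± 0.17, adjusted p = 0.106) under Si-FIBP#2, and neither was called.

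TRA2B ENST00000456380 holds the additional exon of 276 bases at chr3:185931577-185931852 and stops after 38 codons, where the coding transcript ENST00000453386 has 288. Its share was 27.3, 30.00 and 26.4% with Scramble, 21.1, 26.9 and 21.8% under Si-FIBP#1 and 30.4, 26.2 and 30.1% under Si-FIBP#2. The ranges overlapped, and neither difference was called (adjusted p = 0.319 and 0.885). SRSF3, whose decay class held 12.1, 9.21 and 8.97% with Scramble, 10.8, 12.7 and 11.96% under Si-FIBP#1 and 10.00, 12.98 and 8.91% under Si-FIBP#2, overlapped likewise. The summed coding class of TRA2B held 61.8, 60.4 and 63.5% with Scramble, 70.1, 67.2 and 71.0% under Si-FIBP#1 and 55.4, 57.9 and 56.3% under Si-FIBP#2. These groups did not overlap, and the siRNAs went in opposite directions from Scramble. Its retained intron class had group means of 7.20, 5.16 and 11.9%. Neither class was tested, and the share of all genes with such a split is not given here.

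**Figure D4:**
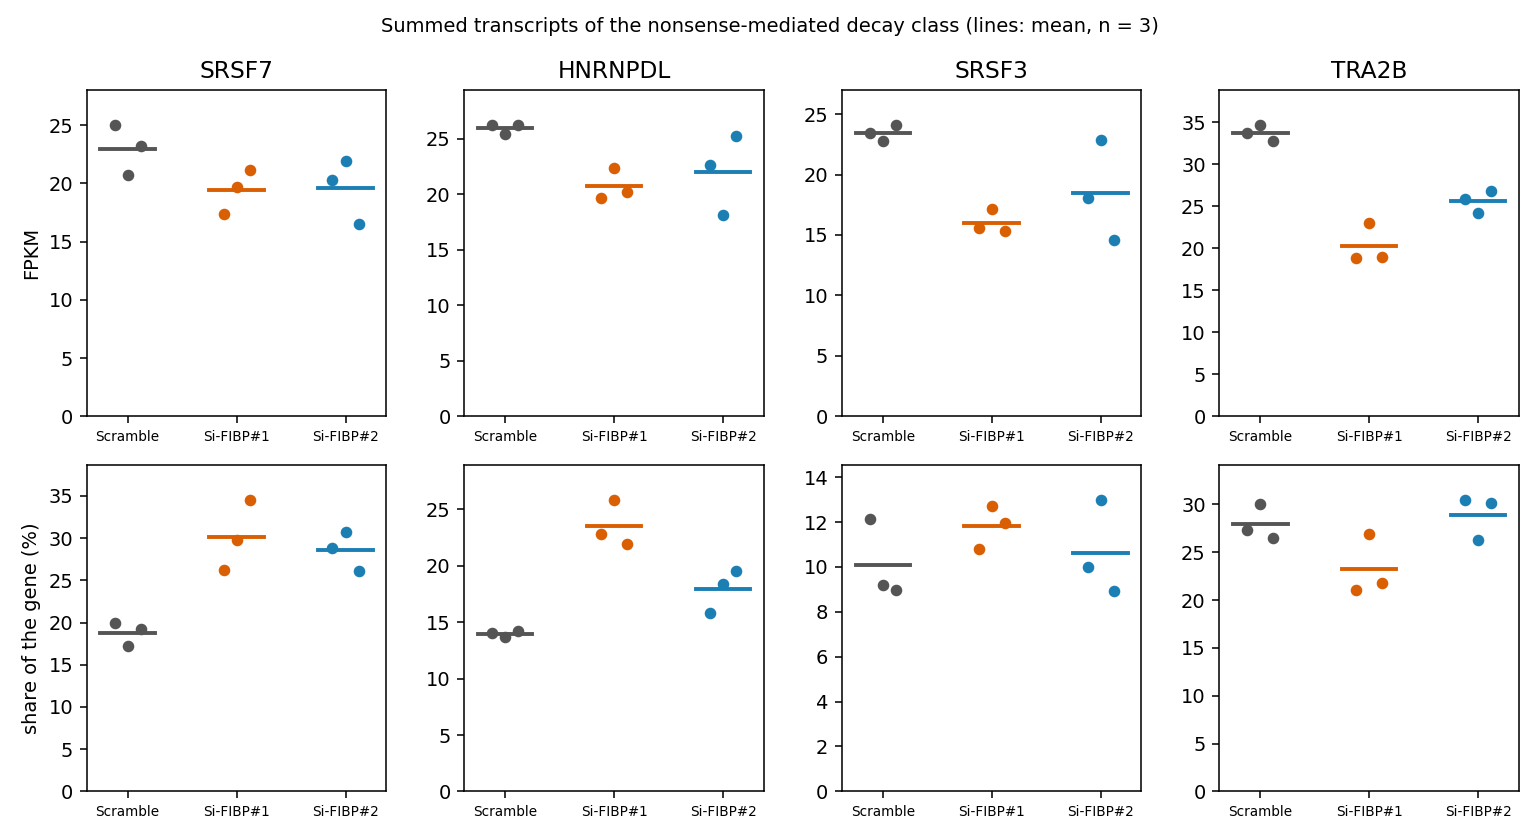
Summed transcripts of the nonsense-mediated decay class for SRSF7, HNRNPDL, SRSF3 and TRA2B, in FPKM above and as a percentage of the gene below, with each library as a point and the group mean as a line. For SRSF7 and HNRNPDL the share is higher in all 6 depleted libraries than in any Scramble library, and for SRSF3 and TRA2B the ranges overlap.

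The decay class of HNRNPD held 1.75, 1.59 and 1.22% with Scramble, 3.88, 4.31 and 3.87% under Si-FIBP#1 and 3.61, 9.46 and 3.44% under Si-FIBP#2, the highest value being that of Si-FIBP#2 replicate 2. In FPKM this class had group means of 5.08, 5.15 and 7.41 in the same order, with 10.4 in Si-FIBP#2 replicate 2. The coding class of HNRNPD went from 321 to 117 and 132 FPKM. HNRNPA1 and HNRNPU had the decay class at 39.3 to 47.2% of their level with Scramble. In HNRNPA1 it consists largely of ENST00000547566, which ends at the same stop codon as the coding transcript ENST00000330752 and has its last exon junction 75 bases after it. The HNRNPA1 class share was 47.2, 44.5 and 44.2% with Scramble, 46.4, 43.3 and 44.6% under Si-FIBP#1 and 44.2, 42.4 and 43.8% under Si-FIBP#2, so that the ranges overlapped. StringTie estimates how reads divide over overlapping transcripts, and these shares carry the error of that estimate in addition to the spread between replicates.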

How the data were processed

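RNA was measured in 9 libraries of 3 groups. The FPKM of every transcript were deposited by the authors, in 1 table for each sample. HISAT2 and StringTie are named in the submitters' processing notes, and versions, genome build and annotation are not given in the sources used here. The tables also hold transcripts assembled by StringTie. No count is given, so the depth of each library is unknown. The spacing of low values in genes with 1 transcript gave a loose estimate of 15100000 to 18650000 fragments per library.

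FPKM were summed per gene, and log2(FPKM + 1) was fitted with limma 3.58.1 (R 4.3.3) over all 3 groups, for genes of at least 1 FPKM in at least 3 samples, with a trend in the variance and Benjamini-Hochberg adjustment. For shares, log2((FPKM + 0.1)/(rest of the gene + 0.1)) was fitted likewise. Transcript classes came from GENCODE release 29 by Ensembl ID, which held 492 of 506 Ensembl transcripts of the members, 461 at the same length. On simulated data, in which 200 of 14985 genes were shifted by a log2 value of 0.5, 41.5% were recovered for Si-FIBP#1, with 1 false call, and 38% for Si-FIBP#2, with 6. For shares with 200 of 42875 transcripts changed by 1.5 log2 odds, 11% and 10.5% were recovered. In the data far more genes were called, 4170 higher and 2976 lower with Si-FIBP#1, and 619 and 263 shares were called with the 2 siRNAs. The Benjamini-Hochberg adjustment depends on how many features change, so these percentages do not give the recovery in the data.

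Members named in the text were those called with a log2 fold change of at least 0.5 with either siRNA (19), the 5 SRSF and 5 HNRNP genes with the highest levels, all TRA2 and PTBP genes, and those called between the siRNAs, 27 in all. Further members are named by their counts, chosen after their values were seen. The members and gene lists were chosen with earlier results of these data known. Alternatives were a pseudocount of 0.1 (1 for shares), no filter, a filter of 5 FPKM, TPM scaling, median ratio scaling, leaving out assembled transcripts, fitting only the groups compared, a replicate block, and leaving out each sample. Some genes are not reported here, although they are counted in the list totals.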

Additional observations from a re-analysis of the deposited data

Results flagged for a closer look

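In the direct comparison of both siRNAs, 3 of the 36 tested members differed between the depleted groups (limma, adjusted p below 0.05), where 15.4% of all tested genes did. For HNRNPF, the difference of Si-FIBP#2 from Si-FIBP#1 was 0.40 on the log2 scale (adjusted p = 0.00325), and in all alternatives it stayed past the threshold, with adjusted p from 0.00191 to 0.0173. For HNRNPA0 it was -0.57 (adjusted p = 0.0028), with adjusted p from 2.2e-04 to 0.0154 over the alternatives. For HNRNPDL it was 0.47 (adjusted p = 0.0221), and it passed in 11 of 17 alternatives, with adjusted p from 2.0e-04 to 0.0803. Each of these genes was lower than Scramble in all 6 depleted libraries. The siRNAs target the same mRNA, and FIBP itself read 7.49, 7.77 and 4.30 FPKM under Si-FIBP#1 and 7.13, 5.92 and 8.21 FPKM under Si-FIBP#2. The cause of these differences was not tested.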

How the results depend on the processing

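The counts of members called against Scramble stayed within 1.5 times the reported 29 and 28 under every alternative, from 28 to 32 and from 27 to 31. The count at 2-fold with Si-FIBP#1 went from 3 to 5 with TPM scaling and 6 with median ratio scaling, and lay between 3 and 6 with each library left out, the 6 being without Scramble replicate 3. With Si-FIBP#2 that count lay between 2 and 5, the 2 being without Si-FIBP#2 replicate 2. Between the siRNAs, the members called went from 3 to 5 with TPM scaling and lay between 2 and 9 with each library left out, the 9 being without Si-FIBP#2 replicate 2. Shares of all tested genes called under these alternatives are not given here.

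Share calls depended most on the processing. With Si-FIBP#1, the 8 calls became 4 with no filter on low values and 3 with the replicate block, and lay between 0 and 8 with each library left out. Besides the 2 libraries named beside the result, the count was 5 without Scramble replicate 1, 3 without Scramble replicate 3, and 2 without Si-FIBP#1 replicate 1 or replicate 3. With Si-FIBP#2, the 2 calls became 0 with no filter, 1 without assembled transcripts, 0 with only the groups compared and 1 with the replicate block, and were 0 with each library left out. The cause was not tested.

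Of 1377 values of named members under alternatives, 1317 kept their direction and side of the threshold, 17 lost a call, 22 gained one and 21 turned in sign. All 21 concern the difference between the siRNAs, none of them called. With median ratio scaling the values were -0.03 for HNRNPA1, -0.02 for HNRNPC, -0.02 for HNRNPU and -0.02 for TRA2B. With TPM scaling they were 0.04 for HNRNPAB, 0.02 for PTBP1, 0.01 for SRSF2 and 0.01 for SRSF5. Without assembled transcripts they were 0.00 for HNRNPAB and -0.06 for PTBP3. With each library left out, the difference ranged from -0.04 to 0.08 for HNRNPA1, -0.03 to 0.02 for HNRNPAB, -0.02 to 0.09 for HNRNPC, -0.00 to 0.07 for HNRNPU, -0.02 to 0.18 for PTBP2, -0.09 to 0.01 for SRSF2, -0.10 to 0.01 for SRSF5 and -0.00 to 0.06 for TRA2B.

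Deviations from the group means correlated from -0.0568 to 0.103 between same-numbered libraries and from -0.142 to 0.049 between differently numbered ones. The ranges overlapped, but the highest values were those of same-numbered libraries. These correlations therefore do not settle whether the numbers mark pairs. The main fit took no pairs. With the replicate block, 31 members were called with Si-FIBP#1, 28 with Si-FIBP#2 and 3 between the siRNAs. The depth is unknown, and the error of the transcript estimates was not measured.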
